A study of Aspergillus terreus with 6 samples.

Results

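Of the 10784 annotation-style gene identifiers in a transcriptome of Aspergillus terreus mycelium, 6 followed the zinc and iron labels of the samples by a fixed rule, 2 of them higher and 4 lower in the metal group. The rule used L, the log2 of CPM plus 1, where CPM is the count of a gene scaled to the total of its library. A gene was kept when its highest L was 3 or more, when its L varied by less than 1 over the 3 controls, and when the nearest metal and control libraries were still at least 0.585 apart, a 1.5-fold gap. These 6 genes are 0.0185% (higher) and 0.0371% (lower) of the identifiers. Because the labels and the values of all 6 libraries chose the genes, their levels are a description, and no test of this contrast on them would be independent of the choice.

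The study concerns the effect of metal ions on the making of itaconic acid by this filamentous fungus, and sequenced RNA of mycelia of the wild-type strain AT2022 from day 2 of shaken culture. The metal group (n = 3) carries in its label zinc sulphate at 0.25 g/L and iron sulphate at 0.40 g/L. The control group (n = 3) is called untreated in a label that also names the zinc salt at 0.15 g/L and the iron salt at 0.16 g/L, and it is not said whether these amounts were in the medium. The treatment protocol shared by all samples speaks of taurine and not of metal salts. Zinc and iron differ together between the labels and cannot be told apart. The labels do not say that the 3 samples of a group were separate cultures, so the spread between them may be technical.

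Zinc and iron are needed by many fungal enzymes and are toxic in excess. In Aspergillus fumigatus the transcription factor ZafA turns on zinc transporters when zinc is short, while HapX and SreA hold iron uptake and iron use in balance, in part through siderophores, small secreted iron chelators. Itaconic acid is made in A. terreus from cis-aconitate by the decarboxylase CadA, and the supply of metal ions is a classic lever on this fermentation. None of these genes can be looked for among the 6. The files give no names, products or positions, and 0 of the 11680 identifiers matched the 10551 genes of the reference annotation of strain NIH2624 (assembly ASM14961v1). For that reason 2 identifiers are printed on each side, those with the largest gap, and the other 2 lower genes are called the third and the fourth lower gene in the order of their gaps. No sequence of the 6 genes is printed, and mycelial marker genes could not be looked up.

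The libraries held from 25097838 to 35124387 counts. Control 2 did not lie with the other controls. Over the 7075 annotated genes past the level minimum, the root mean square difference in L between control 2 and a metal library was 0.35 to 0.41, and between control 2 and controls 1 and 3 it was 0.93 and 0.94. Metal libraries differed from each other by 0.32 to 0.37, and controls 1 and 3 by 0.56. In the gene set described here control 2 is on the side of the controls by construction, since the rule asks for it. The part that this library plays in the size of the set is given with each count.

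Both higher genes stood at 9.71 to 12.0 CPM in the metal libraries. Aterreus0G059230 measured 3.75, 5.31 and 4.62 CPM in controls 1, 2 and 3, and 9.87, 10.9 and 9.71 CPM in metal 1, 2 and 3. Each metal value is above each control value, and the metal libraries are within 0.16 log2 units of each other. The group means were 4.56 ± 0.783 and 10.2 ± 0.675 CPM (SD, n = 3 each), a 2.23-fold difference, and the gap between the nearest libraries was 0.76 log2 units. Fitted by edgeR over all genes, the log2 fold change was 1.18 ± 0.24 (SE).

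Aterreus0G032980 measured 3.56, 6.99 and 6.45 CPM in controls 1, 2 and 3, and 11.2, 11.2 and 12.0 CPM in metal 1, 2 and 3. Control 1 was the low library among the controls, and control 2 was the nearest to the metal group. The means were 5.67 ± 1.84 and 11.5 ± 0.473 CPM (SD, n = 3 each), 2.02-fold apart, with a gap of 0.61 and a fitted log2 fold change of 1.04 ± 0.30 (SE). Its controls spanned 0.81 log2 units and its metal libraries 0.09. Among all 7075 genes past the level minimum, the median spans were 0.66 and 0.30. The place of Aterreus0G032980 in the set depended on the scaling: with CPM scaled by the trimmed mean of M-values (TMM), DESeq2 size factors or the deposited length-scaled values (FPKM) its gap was 0.54, short of the limit. TMM scaling left 1 higher gene and gave 7 lower ones, which held all 4 described here.

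These 2 genes rest on between 114 and 422 counts a library, so their counting error is given here. Control 2 gave 159 counts for Aterreus0G059230, with an exact Poisson 95% interval of 4.52 to 6.21 CPM, and metal 3 gave 341 counts, with an interval of 8.71 to 10.8 CPM. For Aterreus0G032980 the nearest libraries were control 2, with an interval of 6.07 to 8.0 CPM, and metal 2, with an interval of 10.1 to 12.4 CPM. The rule asked for a gap between these same libraries, so nothing is read from whether the intervals meet. They cover counting error only, since reads without molecular identifiers are not independent molecules.

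The lower genes differed more in their group means, though not all of them in the gap, and some were abundant transcripts. Aterreus0G029410 had the largest gap of the 6, at 1.32 log2 units. It measured 430.2, 249.9 and 478 CPM in controls 1, 2 and 3, and 75.8, 99.6 and 32.3 CPM in metal 1, 2 and 3. Controls 1 and 3 were high, control 2 was intermediate, and metal 3 was far below the other metal libraries. The means were 386 ± 120.3 and 69.3 ± 34.1 CPM (SD, n = 3 each), 5.57-fold lower in metal, with a fitted log2 fold change of -2.44 ± 0.43 (SE). Its spans, 0.93 over the controls and 1.59 over the metal libraries, were the widest of the 6 in both groups.

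Aterreus0G064930 measured 298, 205 and 387 CPM in controls 1, 2 and 3, and 81.5, 85.3 and 58.2 CPM in metal 1, 2 and 3. The order of the libraries was that of Aterreus0G029410: control 3, control 1, control 2, metal 2, metal 1 and metal 3 from high to low. Mean levels were 297 ± 91.2 and 75.0 ± 14.7 CPM (SD, n = 3 each), 3.96-fold lower in metal, with a gap of 1.25 and a fitted log2 fold change of -1.94 ± 0.26 (SE).

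The third lower gene had the lowest level per gene length of the 6, a mean of 2.02 FPKM over all libraries. It had 4.57, 7.99 and 6.18 CPM in controls 1, 2 and 3 and 0.696, 2.33 and 1.02 CPM in metal libraries 1, 2 and 3. Control 2 was here the control farthest from the metal group, unlike in the other 5 genes. The lowest count was 23, in metal 1, where the exact Poisson 95% interval was 0.441 to 1.04 CPM. The means of 6.24 ± 1.71 and 1.35 ± 0.865 CPM (SD, n = 3 each) are 4.62-fold apart, with a gap of 0.74 and a fitted log2 fold change of -2.19 ± 0.50 (SE).

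The fourth lower gene measured 71.4, 59.2 and 102 CPM in controls 1, 2 and 3, and 28.4, 35.6 and 27.3 CPM in metal 1, 2 and 3. Control 3 was the high library, and metal 2 was the nearest to the controls. The means of 77.5 ± 22.0 and 30.4 ± 4.51 CPM (SD, n = 3 each) are 2.55-fold apart, with a gap of 0.72 and a fitted log2 fold change of -1.30 ± 0.22 (SE).

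**Figure D1:**
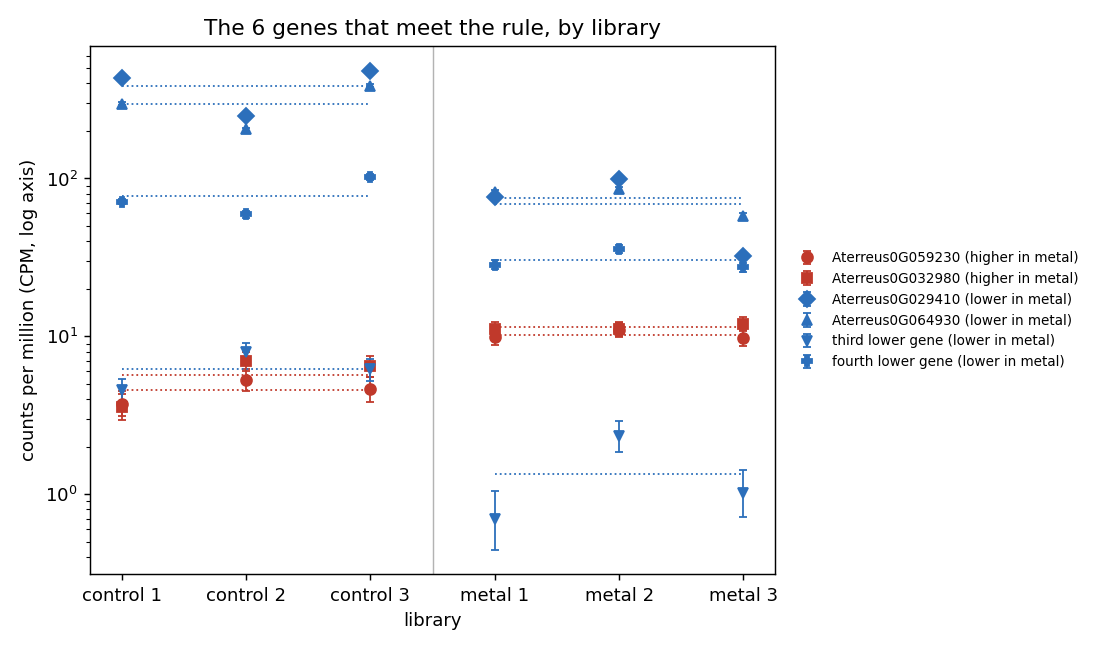
Each point is 1 gene in 1 library in CPM on a log axis, with its exact Poisson 95% interval, and dotted lines are group means (n = 3). The 2 higher genes sit between 9.71 and 12.0 CPM in the metal libraries and between 3.56 and 6.99 CPM in the controls, and the 4 lower genes reach from 0.696 to 99.6 CPM in the metal libraries.

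Levels per gene length came from the deposited FPKM values (by definition scaled by length as well as depth). They placed the 6 genes above 31.5% to 94.7% of annotated identifiers. These shares and the median FPKM below are over all 10784 annotated identifiers. Only 7075 of those passed the level minimum, and shares among these were not computed. Aterreus0G029410 had a mean of 207 FPKM over the 6 libraries, above 94.7% of annotated identifiers, and Aterreus0G064930 had 81.5 FPKM, above 88.7%. The fourth lower gene had 17.5 FPKM, above 65.4%. Aterreus0G032980 had 8.04 FPKM, near the median of 7.64, while Aterreus0G059230 and the third lower gene had 3.19 and 2.02 FPKM, both below it. The ratio of count to FPKM implies lengths of 1048 bases for Aterreus0G032980 and 1095 bases for Aterreus0G029410. Aterreus0G059230 and Aterreus0G064930 came to 2267 and 2271 bases, and the third and the fourth lower gene to 1870 and 3067. The median over 5959 annotated genes with 200 or more counts in every library was 1886, so the 6 lie on both sides of it. These lengths take the column total as depth, and per gene they varied by library, as from 2249 to 2377 for Aterreus0G059230. Together the 4 lower genes held between 0.0522% and 0.0973% of the counts of a control and between 0.0119% and 0.0223% of a metal library.

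Control 2 was the control nearest to the metal libraries in 5 of the 6 genes. Over all 7075 annotated genes past the level minimum it was nearest to the metal mean in 62.4%, and over those whose controls varied by less than 1 in 56.8%. Its place was also expressed as a share of the way from the average of controls 1 and 3 (0) to the metal average (1). It stood at 0.26 in Aterreus0G059230, 0.41 in Aterreus0G032980, 0.30 in Aterreus0G029410, 0.33 in Aterreus0G064930 and 0.35 in the fourth lower gene. In the third lower gene it was at -0.34, beyond controls 1 and 3. Among the metal libraries, metal 2 was the nearest to the controls in all 4 lower genes, and metal 3 was the farthest in 3 of them. How often this order holds over all 7075 genes was not computed, and a distance without direction cannot show it. Over those genes metal 3 was nearer than metal 2 to controls 1 and 3, and farther than metal 2 from control 2. There the root mean square difference in L from controls 1 and 3 was 0.81 and 0.83 for metal 3, and 0.94 and 0.89 for metal 2. From control 2 it was 0.41 for metal 3 and 0.35 for metal 2.

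The limit on the controls shaped the lower side far more than the higher side. Past the level minimum, 428 genes, or 6.05%, had every metal library above every control, and 479, or 6.77%, had every one below. A gap of 0.585 was reached by 2 genes on the higher side, and both met the limit on the controls. On the lower side 32 genes reached it, and 28 of these were left out because their controls varied by 1.23 to 5.68 log2 units, with a median of 2.87. In all 28 control 2 was the lowest control. The 4 lower genes are thus the ones among these 32 in which control 2 came within 1 log2 unit of controls 1 and 3. The widest control range inside the limit was 0.93 and the narrowest outside was 1.23. For the gap, the smallest value inside was 0.61 on the higher side and 0.72 on the lower side, and the nearest genes outside had 0.534 and 0.568. None of the 896 features marked as new genes was counted in the set, and 0 higher and 0 lower of them would have met the other limits.

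**Figure D2:**
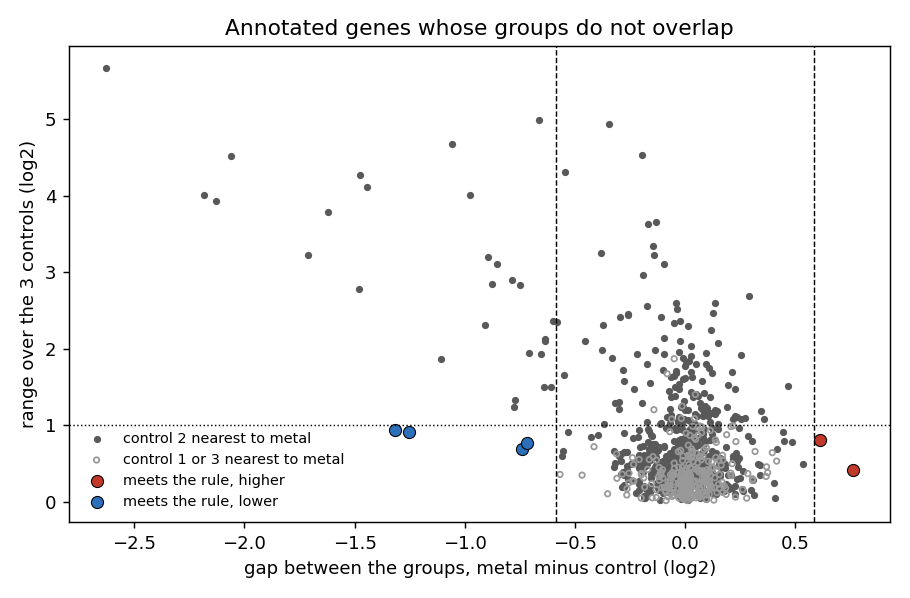
Each point is 1 annotated gene past the level minimum whose groups do not overlap (428 above and 479 below), placed by the gap between the groups, metal minus control, and by the range over the 3 controls, both in log2 units. Dashed lines mark the gap of 0.585 and the dotted line the control range of 1. The 28 genes left of the dashed line and above the dotted line are all drawn as having control 2 nearest to metal.

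The same rule was applied to every other division of the 6 libraries into 3 and 3. There are 9 of these, and each was read with either side in the place of the controls, since the limit on the range applies to that side alone, which makes 18 readings. The second side was higher in 0 to 33 genes and lower in 0 to 12, and the totals ran from 0 to 44 with a median of 2.00. The labelled division gave 6, a total that 7 of the 18 readings reached or passed. The largest total, 44, came with control 2, metal 1 and metal 2 in the place of the controls and controls 1 and 3 with metal 3 on the other side. The next was 16, for the same division with its sides exchanged. In the 6 readings that kept controls 1 and 3 on the same side the totals were 4 to 44, and in the 12 that separated them 0 to 7. For the labelled division only the reading with the controls in their own place is compared here, and its exchange, described next, gave 33. All divisions share the same libraries, so these counts are a description and not a test against chance.

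With the sides of the labelled division exchanged, so that the metal libraries had to be within 1 log2 unit of each other and the controls were free, the rule gave 2 genes higher in metal and 31 lower. The 2 higher genes were the same ones. Of the 31, 3 were among the 4 lower genes and 28 were those in which control 2 was the lowest control. Aterreus0G029410, whose metal libraries spanned 1.59, was the lower gene that dropped out.

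**Figure D3:**
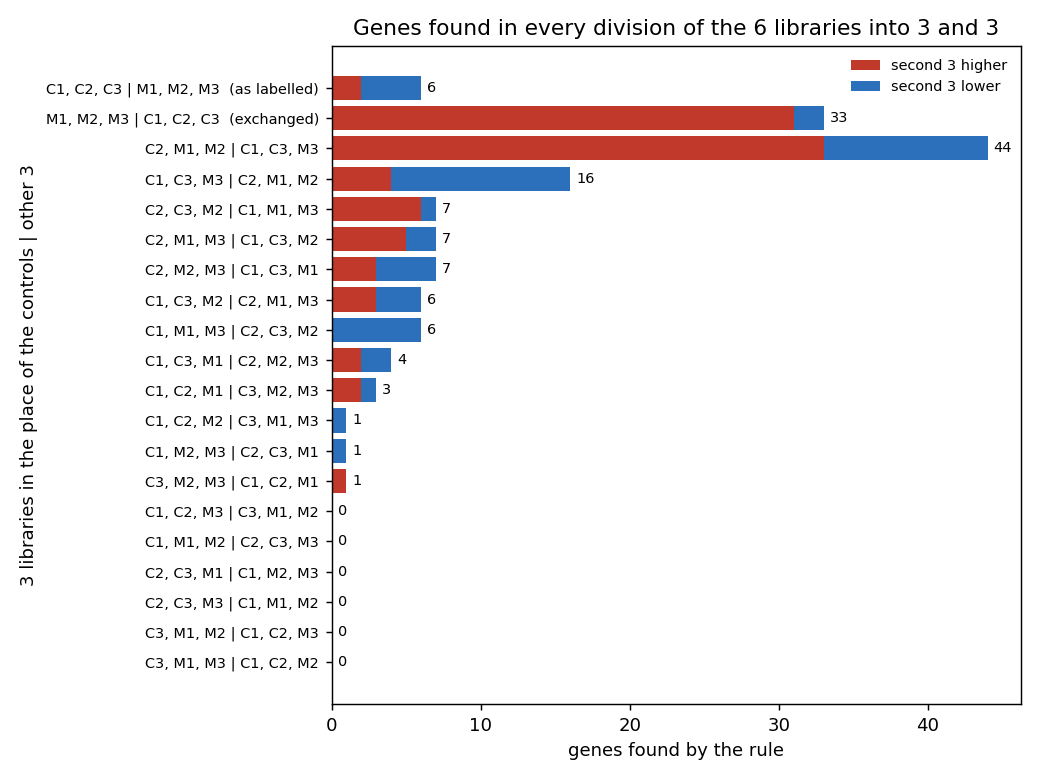
Bars give the number of genes found by the rule for each choice of 3 libraries in the place of the controls (left of the line in each label) against the other 3, with C for control and M for metal. Red counts genes higher and blue genes lower in the second 3. The labelled division gives 6, its exchange 33, and the other 18 readings 0 to 44.

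Calls in the labelled contrast, fitted across all genes, depended on the tool. The edgeR quasi-likelihood test with Benjamini-Hochberg adjustment called 0 of 9698 genes higher (0%) and 0 lower (0%) at an adjusted p of 0.05. At an unadjusted p of 0.05 it counted 180 higher (1.86%) and 655 lower (6.75%), with the 6 genes among them. limma-voom also called 0 higher (0%) and 0 lower (0%). DESeq2 called 10 higher (0.0956%) and 136 lower (1.30%) of 10461, and these included Aterreus0G059230 and all 4 lower genes but not Aterreus0G032980. Without control 2, edgeR called 652 genes higher (6.56%) and 1009 lower (10.2%) of 9935, with all 6 genes among them. The 6 were chosen on this contrast and nothing is read from their place in these calls. Without control 2 the fitted log2 fold changes were 1.36 ± 0.23 for Aterreus0G059230, 1.29 ± 0.29 for Aterreus0G032980, -2.63 ± 0.40 for Aterreus0G029410 and -2.11 ± 0.21 for Aterreus0G064930 (SE). The third and the fourth lower gene came to -1.91 ± 0.50 and -1.42 ± 0.20 (SE).

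Among the single libraries left out, control 2 changed the number of genes most. With the same limits and without control 2, the rule gave 263 genes higher and 580 lower, which held 5 of the 6. The third lower gene was the one missing, because its highest L is 3.17 in control 2 and only 2.84 elsewhere, under the minimum of 3. With any other library left out the rule gave 3 to 6 higher and 4 to 9 lower genes, and all 6 were kept each time. Leaving out a library cannot narrow a gap or widen a control range. A gene of the set could thus be lost only through the level minimum, and nothing is read from its being kept.

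Identifier numbers gave the only positional information in the files, and it is not stated that they follow the genome. The 6 genes were scattered along them, at least 357 numbers apart. For each gene the 5 identifiers before it and the 5 after it were examined, 60 in all, of which 35 were past the level minimum. In 7 of these 35, or 20.0%, the groups did not overlap and lay in the direction of the gene beside them, and in 1 they lay in the opposite direction. The share over all genes past the minimum was 6.05% above and 6.77% below. Neighbouring numbers are not independent of each other, and reads shared between overlapping genes could not be looked at without positions, so this is a description.

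The numbers just before the fourth lower gene showed the same pattern at similar size. The gene directly before it measured 23.1, 17.5 and 51.2 CPM in controls 1, 2 and 3, and 6.69, 11.1 and 9.59 CPM in metal 1, 2 and 3. It had a gap of 0.61 but a control range of 1.5, and so was left out. The gene 2 numbers before measured 63.6, 54.6 and 82.7 CPM in the controls, and 31.1, 36.8 and 33.6 CPM in the metal group. Its gap of 0.56 was just short of the limit. The 3 consecutive numbers were lower in metal by 0.95, 1.52 and 1.29 log2 units in mean L, while the gene directly after them differed by 0.04.

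Beside Aterreus0G029410 the preceding number was also lower in metal. It measured 1251, 440.1 and 709.6 CPM in the controls, and 197, 282 and 154 CPM in the metal group, and its control range of 1.51 kept it out of the set. A gene 4 numbers before Aterreus0G029410 measured 30.5, 2.11 and 17.7 CPM in the controls, and 1.36, 1.81 and 1.25 CPM in the metal group, with control 2 close to the metal group. On the higher side, the numbers 1 and 3 before Aterreus0G059230 had metal libraries above all controls, with mean differences of 0.96 and 0.51 log2 units. The number between them differed by 0.69, but its groups overlapped. Of the 7 neighbours of Aterreus0G032980 past the level minimum, 1 had metal libraries above all controls. It lay 3 numbers before, at 164, 267 and 47.5 CPM in the controls and 433, 291 and 394 CPM in the metal group, with a control range of 2.47. The gene 2 numbers after Aterreus0G032980 had a mean difference of -0.88 log2 units, with overlapping groups.

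By contrast, Aterreus0G064930 had no neighbour with a difference of similar size. Its 7 neighbours past the level minimum differed by -0.34 to 0.13 log2 units, against -1.94 for the gene itself, and in all 7 the groups overlapped. Their median of -0.28 was still in the direction of the gene, where the median over all genes past the minimum was -0.01. The third lower gene likewise had no neighbour past the minimum with every metal library below every control. Its 5 such neighbours differed by -0.04 to 0.49, and the one directly before it was higher in metal, at 17.3, 28.8 and 20.0 CPM in the controls and 29.8, 29.6 and 30.2 CPM in the metal libraries.

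**Figure D4:**
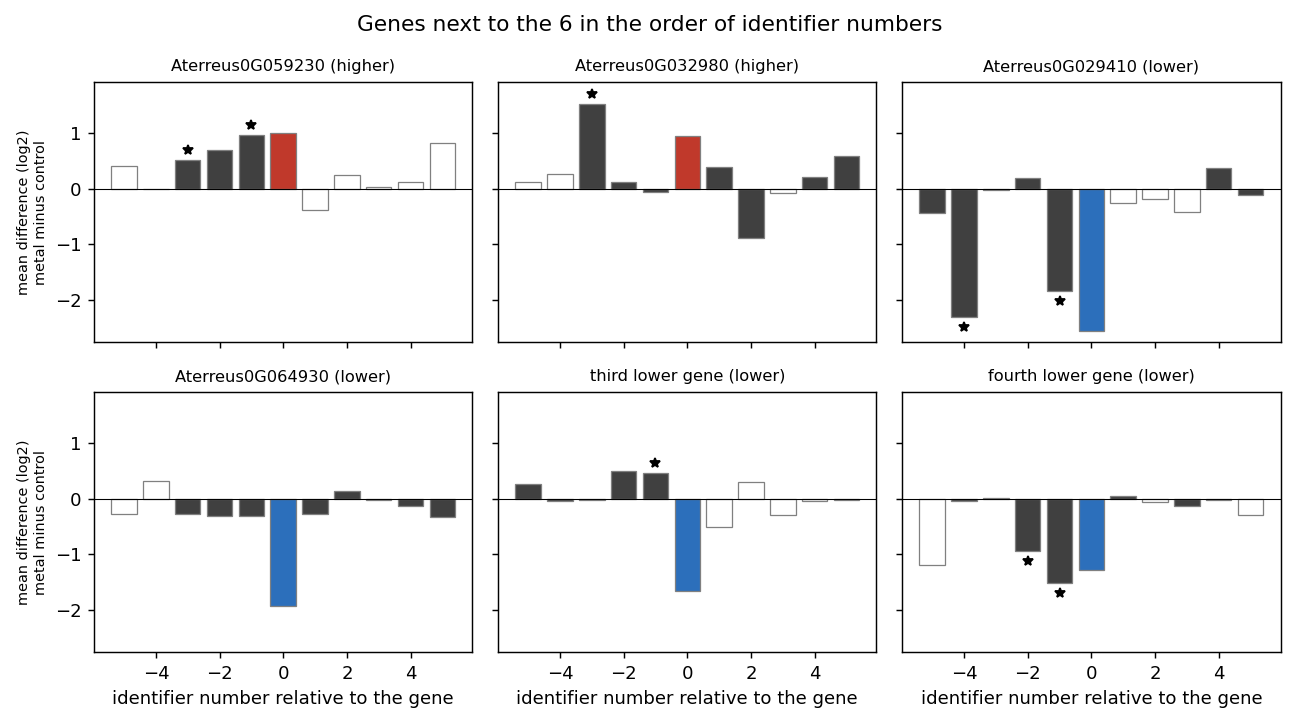
Each panel shows 1 of the 6 genes (coloured bar at 0) and the 5 identifier numbers on either side, with the mean difference of L, metal minus control, in log2 units. Dark bars are neighbours past the level minimum, white bars those below it, and stars mark dark bars whose groups do not overlap. The genes directly before Aterreus0G029410 and the fourth lower gene differ by -1.83 and -1.52, and the dark bars around Aterreus0G064930 by -0.34 to 0.13.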

How the data were processed

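The authors deposited whole-number counts per gene and FPKM values for 6 libraries, 3 control and 3 metal, in 1 table each. Per the submitters' processing notes TopHat2 and DESeq were used. How reads were counted, the genome build, the annotation, the strand setting and the FPKM method are not stated in these sources. Without a stated strand setting, reads of a gene and its antisense partner cannot be told apart. Per the labels' protocols RNA was extracted with TRIzol and libraries were made with a NEBNext Ultra RNA kit.

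CPM was computed from the deposited counts by the column total, from 25097838 to 35124387. The members, the rule and the gene lists were chosen with earlier results of these data known. The identifiers printed are the 2 members of each direction with the largest gap. The lists for zinc, iron, itaconate, oxidative stress and respiration had no members to count, since no identifier matched. The fit across all features used edgeR 4.0.16 in R 4.3.3 (filterByExpr, TMM scaling, robust quasi-likelihood test, Benjamini-Hochberg adjustment, threshold 0.05). SEs were derived from the F statistic. DESeq2 1.42.0 and limma-voom (limma 3.58.1) were alternatives, with other scalings, filters, limits, left-out libraries and the replicate number as a block. The rule was checked on made-up rows with known answers, and the edgeR fit on simulated counts. Those counts had less spread between replicates than these data and no library lying with the other group. They therefore do not show how many changed genes the fit would find here.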

Additional observations from a re-analysis of the deposited data

How the results depend on the processing

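The number of genes found depended on the limits, against 2 higher and 4 lower. CPM scaled by TMM or by DESeq2 size factors gave 1 and 7 genes each time. Aterreus0G032980 then missed the gap, at 0.54. FPKM in place of CPM gave 0 and 6, with 3 of the 6 genes kept. The level minimum of 3 was left as it was, although the unit differs. Aterreus0G059230 and the third lower gene still met the gap, at 0.60 and 0.65. They dropped out because their highest values on that scale were 2.49 and 2.41. No minimum level gave 8 lower, a minimum of 5 gave 0 higher, no limit on the control range gave 32 lower, a gap above 0 gave 366 and 372, and a gap of 1 gave 0 and 2; these follow from the limits themselves. Leaving out single libraries gave 3 to 263 higher and 4 to 580 lower. Since this cannot narrow a gap or widen a control range, these counts could fall only through the level minimum. The counts passed 1.5 times the main ones without control 1 (9 lower), control 2 (263 and 580), control 3 (6 higher), metal 1 (5 and 7) and metal 2 (6 and 9). The counts of edgeR calls were 0 under RLE scaling, without a filter and by limma-voom. DESeq2 called 10 higher and 136 lower (the cause was not tested), and single libraries left out gave 0 to 652 higher and 0 to 1009 lower, above 0 only without control 2. With the replicate number as a block edgeR called 0 higher and 0 lower; same-numbered libraries had correlations of deviations of 0.067, 0.16 and 0.17 against -0.29 to 0.23 for other pairs, so the numbers were not taken as pairs. The printed genes kept their direction in every setting. The rule had already put all their metal libraries beyond all controls on these same counts, so nothing is read from this. Their edgeR log2 fold changes were 1.06 to 1.36, 0.80 to 1.29, -2.77 to -2.09 and -2.11 to -1.74 for Aterreus0G059230, Aterreus0G032980, Aterreus0G029410 and Aterreus0G064930. All 4 passed the edgeR threshold without control 2 and in no other edgeR fit.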
